A study of Triticum aestivum with 122 samples.

Results

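The 100 transcript entries described here were lower at 29 °C than at 22 °C after 8 h in both tissues and both seed treatments of wheat heads, while their mean temperature difference at 16 and 24 h was near 0. They were taken from the 30140 entries, of 55577 in the table, that had a mean of at least 20 normalized counts over all libraries. For each entry the heat effect was the mean of log2(normalized count + 1) at 29 °C minus that at 22 °C, for each tissue, seed treatment and hour. The 23770 entries whose 8 effects at 16 and 24 h averaged between -0.3 and 0.3 were ranked by the highest of their 4 effects at 8 h, and the 100 lowest are the members. The members were thus chosen by their measured heat effects at 8, 16 and 24 h, and the same libraries give the values below, so those effects are descriptions and carry no test. The member ranked 100, TraesCS3A03G0726800.1, had a highest 8 h effect of -0.4500, and the next entry in rank, TraesCS5B03G1100300.1, had -0.4478, so no gap separates the members from the entries below them. The working name of the set says that its genes are lowered only early, and the values at 16 and 24 h given below go against the word only.

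The plants were bread wheat, Triticum aestivum, cultivar Vida, an allohexaploid whose A, B and D subgenomes usually carry a copy of each gene. Seeds germinated for 48 h with 1 µM 2,4-epibrassinolide (EBR), a brassinosteroid hormone, or with 1 µM dimethyl sulfoxide (DMSO), the control. Pots stood at 22 °C with 16 h of light. At booting, when pollen mother cells have formed tetrads, some pots per seed treatment were warmed to a steady 29 °C. Unemerged heads were sampled at 0 h, just ahead of the move, and then at 8, 16 and 24 h. Every head gave a floret sample and a rachis sample, the rachis being the axis under the spikelets, so both libraries of a plant share a head. The 0 h groups named 29 °C hold plants that had not yet been moved. Pollen formation around the tetrad stage is among the most heat-sensitive phases of a cereal plant, and warmth is known to bring a fast transcript response there in which chaperone genes rise and many growth genes are lowered. Brassinosteroids act through a receptor kinase at the cell surface and transcription factors of the BZR family, and they promote cell elongation and male fertility.

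The table held 61 floret libraries with 14.5 to 21.8 M reads (median 17.4 M) and 60 rachis libraries with 10.6 to 18.2 M (median 14.7 M). Of the 32 groups of tissue, seed treatment, temperature and hour, 26 had 4 libraries, 5 had 3, and the rachis of EBR seed at 22 °C and 8 h had 2. The labels call the libraries biological replicates, and p-values measure the spread between them. None of the 53798 gene IDs of the table was found in the 155467 rows of the gene reference, and the table gives no gene names, so the members are named by ID and no role can be assigned to them. For the same reason tissue labels could not be set against marker genes. In these bulk tissues, fewer cells of a type and less RNA per cell cannot be told apart. Chromosomes 6 and 7 were not analysed here.

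At 8 h the heat effect of the members was larger after EBR than after DMSO in both tissues. The median effect on the log2 scale was -0.59 in the floret of DMSO seed and -1.14 in the floret of EBR seed, and it was -0.61 and -1.30 in the rachis. Over the 30140 entries the 4 medians lay between -0.02 and 0.02. An effect below -1 was found for 9 members in DMSO floret, 57 in EBR floret, 16 in DMSO rachis and 69 in EBR rachis. The EBR effect was the lower in 89 of the 100 members in each tissue, with a median difference between the seed treatments of -0.50 for floret and -0.66 for rachis. Of all entries, 49.2% in the floret and 50.4% in the rachis had the lower EBR effect, with median differences of 0.007 and -0.004. The rule set a ceiling on all 4 effects and none on their size, and the difference between seed treatments was not tested for that reason. Every 29 °C library lay below every 22 °C library for 27 members in DMSO floret, where 7.83% of the 30140 entries did so, and for 93 members in EBR floret, where 24.1% did. In the rachis the counts were 24 members for DMSO (4.11% of entries) and 95 for EBR (26.4%). These shares use the same contrast as the rule and describe how the members were picked.

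TraesCS1D03G0529000.1, on chromosome 1D, had the second lowest rank and separated the temperatures in all 4 comparisons at 8 h. In the floret of DMSO seed its normalized counts at 8 h were 61.3, 63.2, 59.7 and 64.0 at 22 °C and 24.7, 20.2, 30.6 and 26.1 at 29 °C. In the floret of EBR seed they were 50.1, 60.0 and 60.5 at 22 °C and 13.5, 26.1, 20.8 and 27.0 at 29 °C. The groups did not overlap, and the floret heat effects were -1.27 for DMSO and -1.38 for EBR. In the rachis of DMSO seed the counts at 8 h were 60.7, 39.8, 47.6 and 48.0 at 22 °C and 12.3, 27.7, 16.6 and 26.1 at 29 °C. In the rachis of EBR seed they were 50.2 and 54.8 at 22 °C and 15.2, 16.2, 38.3 and 16.6 at 29 °C. The rachis groups did not overlap either, although 1 EBR library at 29 °C lay well above the other 3, and the effects were -1.26 and -1.35. At 16 h the temperatures overlapped for TraesCS1D03G0529000.1 in the floret of DMSO seed, with 33.3, 41.1, 39.7 and 51.6 at 29 °C against 47.3, 39.2, 42.6 and 49.6.

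TraesCS1D03G1041700.1, also on chromosome 1D, had the lowest rank, and its libraries differed widely within a group. In the floret of DMSO seed at 8 h its normalized counts were 208, 77.4, 138 and 1492 at 22 °C and 246, 31.8, 198 and 27.9 at 29 °C. These groups overlapped, and a single 22 °C library stood several-fold above all others. In the floret of EBR seed the counts were 488, 461 and 198 at 22 °C and 35.1, 29.6, 33.1 and 49.0 at 29 °C, with no overlap. Its 8 h effects were -1.55 and -3.26 in the floret of DMSO and EBR seed, and -1.66 and -3.73 in the rachis. The most abundant member, TraesCS3B03G0839800.1 on chromosome 3B with a mean of 2072 normalized counts, separated the temperatures in the floret, narrowly after DMSO and widely after EBR, and overlapped in the rachis after DMSO. Its floret counts at 8 h were 2898, 2483, 3108 and 3155 at 22 °C against 2480, 2102, 2187 and 1686 at 29 °C for DMSO seed, where the highest heated head lay just under the lowest 22 °C head. For EBR seed they were 3691, 3283 and 3556 against 1876, 1585, 1617 and 1969.

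**Figure D1:**
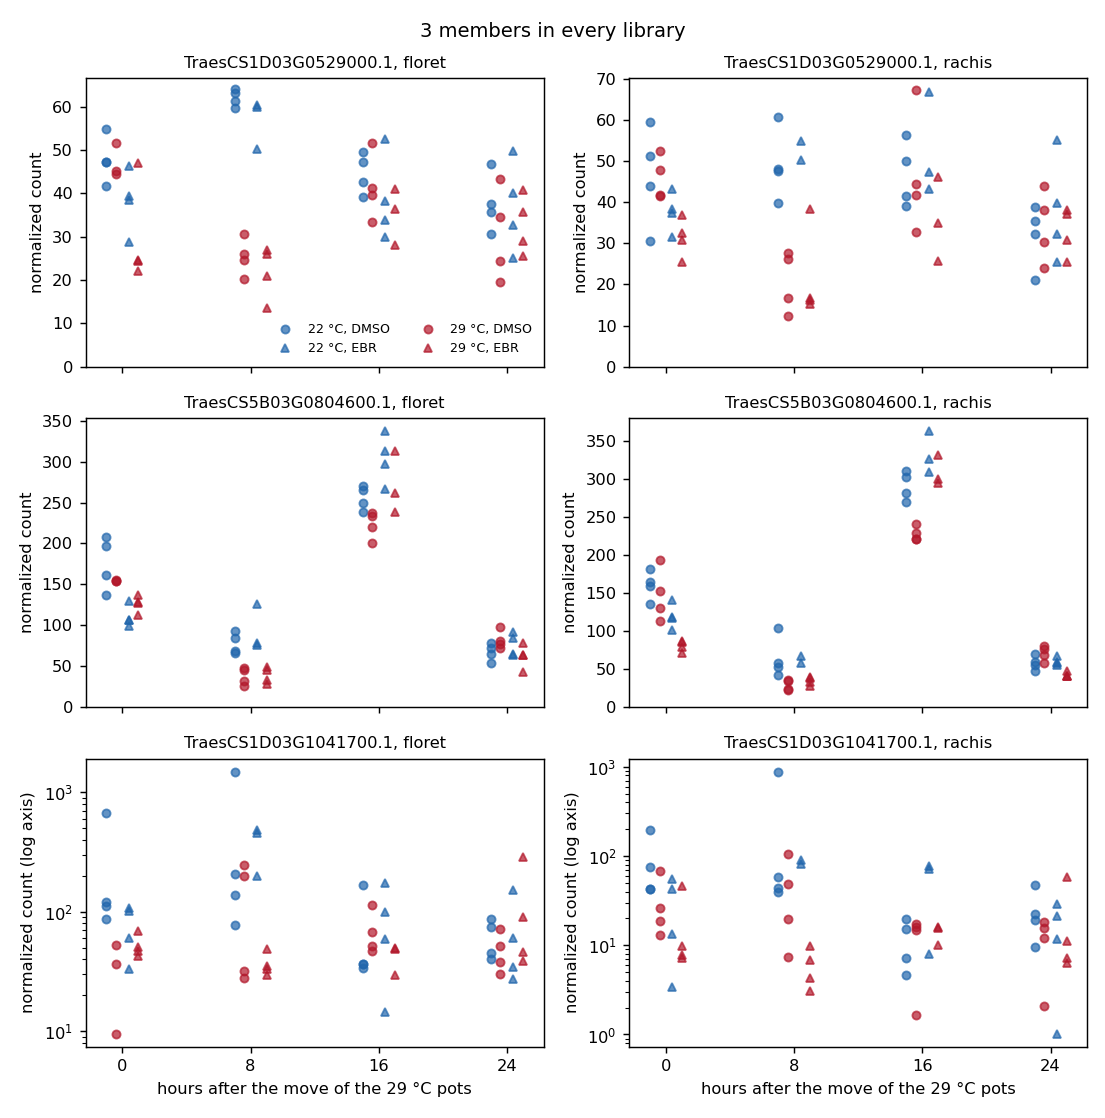
Normalized counts of 3 members in every library (y axis, linear in the upper 4 panels from 0 and logarithmic in the lower 2) against hours after the move (x axis, points shifted sideways by group), in floret (left) and rachis (right). Circles are DMSO seed and triangles EBR seed, blue 22 °C and red 29 °C; TraesCS1D03G0529000.1 separates the temperatures at 8 h within each seed treatment, TraesCS5B03G0804600.1 is highest at 16 h, and TraesCS1D03G1041700.1 spreads over more than a factor of 10 within some groups.

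Averaged over the 100 members, the log2 level of each library showed the same contrast between seed treatments. In the floret of DMSO seed at 8 h the member means were 7.53, 7.11, 7.48 and 7.91 at 22 °C and 7.23, 6.55, 7.22 and 6.37 at 29 °C, so that 2 heated heads lay above the lowest 22 °C head. In the floret of EBR seed they were 7.79, 7.71 and 7.56 at 22 °C and 6.50, 6.24, 6.05 and 6.51 at 29 °C, with a gap of more than a log2 unit between the groups. In the rachis of DMSO seed they were 7.04, 6.93, 7.31 and 7.81 at 22 °C and 6.94, 6.36, 6.84 and 5.99 at 29 °C, where 1 heated head again lay above the lowest 22 °C head. In the rachis of EBR seed they were 7.52 and 7.38 against 6.14, 5.68, 5.36 and 6.01, and the groups were far apart.

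**Figure D2:**
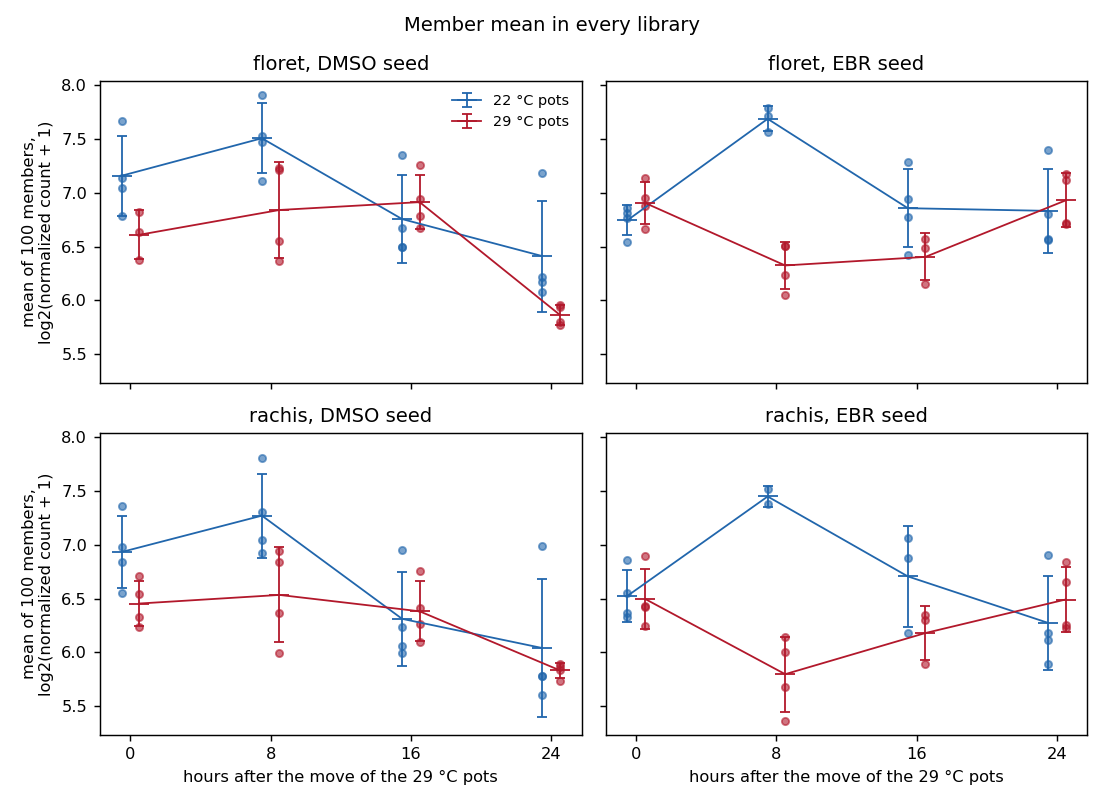
Mean of log2(normalized count + 1) over the 100 members (y axis) in every library (points) against hours after the move (x axis), in floret (top) and rachis (bottom) for DMSO seed (left) and EBR seed (right), with group means and SD as bars. The 22 °C groups (blue) are highest at 8 h in all 4 panels, the 29 °C groups (red) are lower at 8 h, and the pots named 29 °C are already lower at 0 h after DMSO.

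Before any heating the DMSO plants already differed in the same direction. At 0 h the member means in the floret of DMSO seed were 7.14, 6.79, 7.67 and 7.04 in pots that stayed at 22 °C and 6.37, 6.82 and 6.63 in pots later moved. The median member difference between those pots at 0 h, moved minus kept, was -0.42 for floret and -0.35 for rachis of DMSO seed, and 86 and 82 of the 100 members were negative. After EBR the same medians were 0.16 and 0.01, with 18 and 48 members negative. For all 30140 entries the 4 medians lay between -0.01 and 0.01. After DMSO, every library of the pots to be moved lay below every kept library for 15 floret members (4.65% of entries) and 14 rachis members (3.69%). After EBR this held for 2 floret members (0.972%) and 2 rachis members (2.14%). The 0 h libraries entered the rule through the minimum mean level and not through a temperature difference. Averaged over both seed treatments, limma called 0 members in either tissue between pots to be moved and pots kept, at a Benjamini-Hochberg adjusted p under 0.05, and edgeR on the recovered reads also called 0. The background was 0.0% of 38320 entries in each direction in the floret, and 0.00257% higher and 0.0% lower of 38883 in the rachis. At an unadjusted p under 0.05 there were 7 floret members (5.97% of entries) and 10 rachis members (6.9%), which is near the background, and the medians over members were -0.11 and -0.20. Because these tests average DMSO with EBR plants, they do not measure the difference seen in the DMSO plants, which was not tested alone.

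The values at 16 and 24 h were near 0 on average and not one by one. Of the 100 members, 0 had all 8 later effects between -0.3 and 0.3, and 13 had all 8 between -0.5 and 0.5. Of the 23770 entries of the same band the counts were 4023 and 11711. At least 1 later effect was below -0.5 in 85 members, above 0.5 in 48, and both occurred in 46, against 8149, 7882 and 3972 of the 23770. In 80 members some later effect was lower than that member's own weakest effect at 8 h, against 23572 of the 23770. The later effects differed by seed treatment. After DMSO the floret medians were 0.16 at 16 h and -0.49 at 24 h, with -0.01 and -0.19 for the rachis. After EBR the floret medians were -0.50 at 16 h and 0.09 at 24 h, with -0.49 and 0.12 for the rachis. The EBR plants thus still had negative medians in both tissues at 16 h, and the DMSO plants had them at 24 h. In the rachis of DMSO seed at 24 h this rested on a single 22 °C head. The member means there were 5.78, 6.99, 5.78 and 5.61 at 22 °C and 5.90, 5.74, 5.86 and 5.84 at 29 °C. In the floret of DMSO seed at 24 h every heated head lay below every 22 °C head by member mean.

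**Figure D3:**
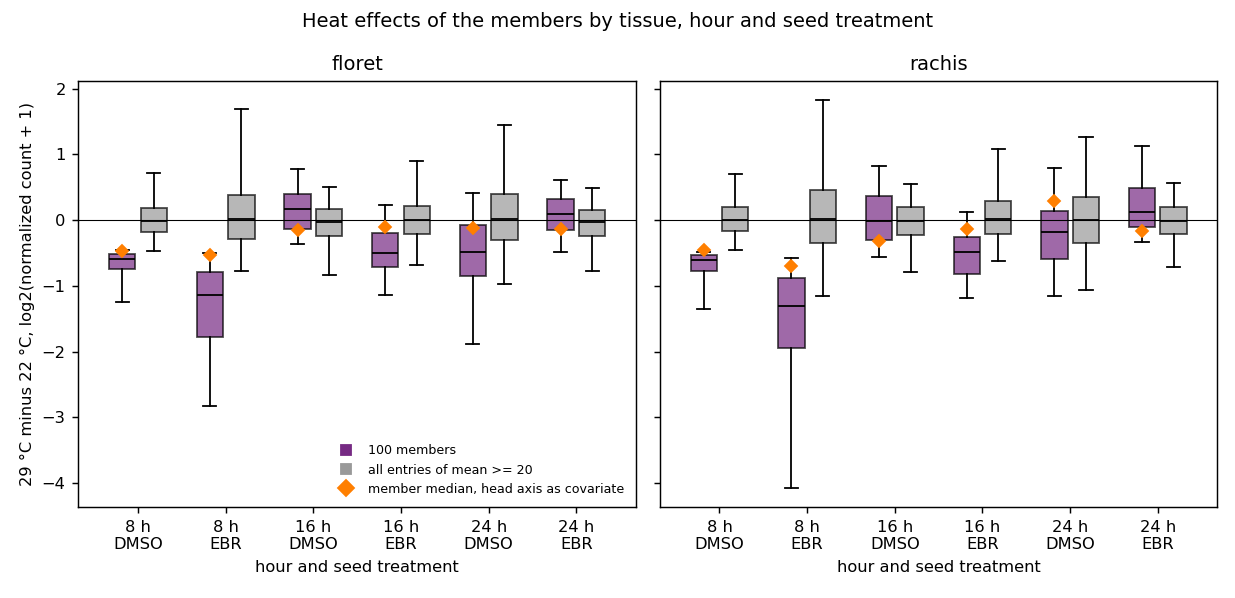
Heat effect, 29 °C minus 22 °C on the log2(normalized count + 1) scale (y axis), for the 100 members (purple) and all entries with a mean of at least 20 (grey), by hour and seed treatment (x axis) in floret and rachis; boxes give quartiles, lines medians and whiskers the range from the lower to the upper tail of 5% on each side. Orange diamonds are the member medians with the head axis score as covariate, -0.53 against -1.11 without it on the same libraries in EBR floret at 8 h, where the members stood furthest below 0 in that tissue.

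Against the pooled 0 h groups of a seed treatment, the members at 8 h stood further above at 22 °C than they stood below at 29 °C, in both tissues and seed treatments. Relative to the mean of both 0 h groups of the seed treatment, the median member at 22 °C and 8 h was higher by 0.55 in either tissue after DMSO, and by 0.76 in both tissues after EBR. At 29 °C and 8 h the medians relative to 0 h were -0.06 and -0.04 after DMSO and -0.49 and -0.60 after EBR. At 22 °C, 8 h was the highest of the 4 times for 90 and 93 members in the floret of DMSO and EBR seed, and for 91 in the rachis of each. Among all 30140 entries that share was between 34.7% and 37.7%. At 29 °C, 8 h was the lowest of the 4 times for 13 and 49 members in the floret of DMSO and EBR seed, and for 17 and 70 in the rachis, where the shares of all entries were between 18.9% and 26.4%. The 8 h libraries entered the rule, so a high value at 22 °C and a low value at 29 °C were both favoured by it.

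Because the rule averages few libraries, it was also run without each replicate number in turn, and the 100 entries so chosen were read in the left-out libraries. Without replicate 1, 2, 3 or 4 the rule kept 54, 56, 59 and 37 of the 100 members, and 6 members were chosen in all 4 runs, among them TraesCS1D03G0529000.1, TraesCS2B03G0487000.1 and TraesCS5B03G0804600.1. After EBR the left-out pairs showed medians of -1.43, -1.20 and -1.45 in the floret (replicates 1, 2 and 3) and -1.45 and -1.68 in the rachis (replicates 2 and 3). The libraries used to choose had given -1.56, -1.13 and -1.27 in floret and -1.32 and -1.35 in rachis. The rachis group of EBR seed at 22 °C held only replicates 2 and 3, so leaving out either left a single library there to choose on. After DMSO the left-out floret pairs gave medians of 0.17, -0.28, -0.03 and -0.59 for replicates 1 to 4, and the rachis pairs 0.44, -0.39, -0.25 and -0.50. The replicate 1 pair after DMSO was thus higher at 29 °C than at 22 °C in both tissues, and the lower DMSO level at 8 h was not seen in every left-out pair. Over all entries the left-out medians lay between -0.04 and 0.02.

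Heads of the same group differed from each other along a dominant direction, and most members moved with it. The first principal axis of the deviations from group means, over the 30140 entries, held 33.6% of the within-group variation among florets and 36.9% among rachises, and each library has a score on it in units of the within-group SD. Within groups, the median correlation of a member with this axis was -0.61 over 61 floret libraries and -0.56 over 60 rachis libraries, against 0.01 and 0.03 for all entries. The libraries behind these correlations differed in depth and may differ in dissection, and floret and rachis share heads. The sign of the axis was set so that a higher score goes with more entries detected within groups. The correlation was below -0.5 for 63 members among florets and 57 among rachises, where 19.3% and 22.5% of all entries were, and above 0.5 for 0 members. With the mean of the other members the median correlation was 0.66 and 0.58, against -0.01 and -0.03 for all entries.

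The head axis moved with temperature and seed treatment at 8 h. The mean score at 8 h in the floret was -1.44 at 22 °C and -0.65 at 29 °C after DMSO, and -2.14 and 0.89 after EBR. In the rachis it was -1.47 and -0.999 after DMSO, and -1.95 and 0.93 after EBR. At 24 h the DMSO plants had the highest scores, with 3.59 at 29 °C and 1.51 at 22 °C in the floret. With the score of the other tissue of the same plant as a covariate (59 plants with both tissues), the median member effects at 8 h were -0.48 and -0.53 in the floret of DMSO and EBR seed and -0.46 and -0.70 in the rachis. The 8 later medians with the covariate lay between -0.31 and 0.29. The EBR medians at 8 h were smaller in size than those without the covariate by more than a factor of 1.5, and the DMSO medians were not. The score itself differed between the temperatures, so a temperature effect carried by the axis and the axis itself cannot be told apart.

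**Figure D4:**
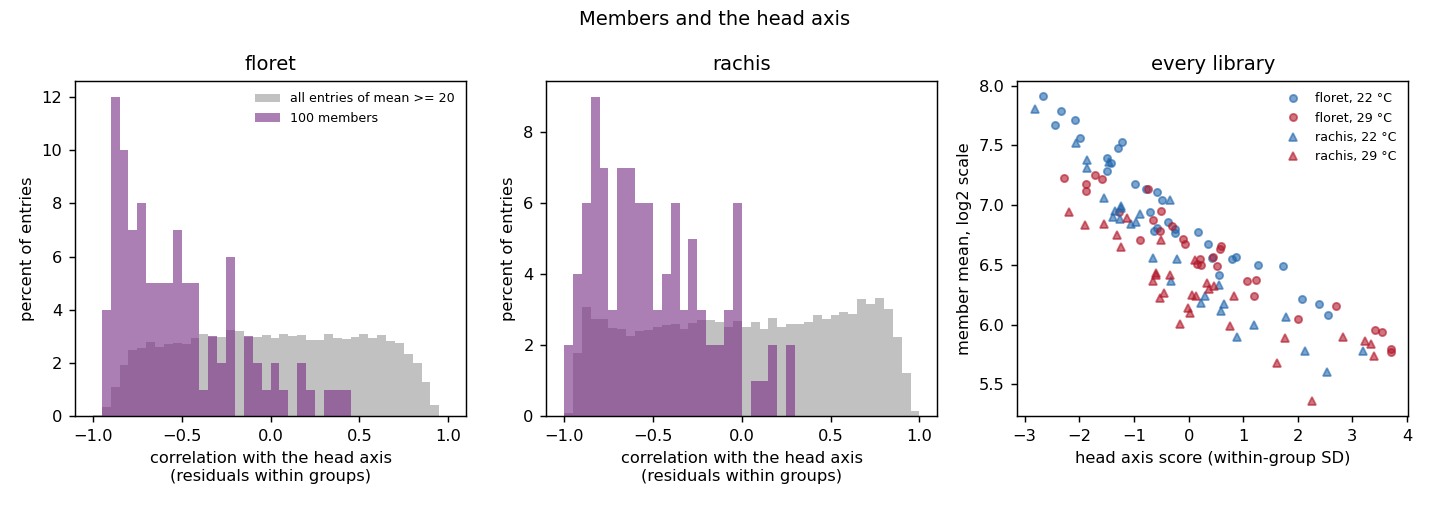
Left and middle, percent of entries (y axis) by correlation with the head axis within groups (x axis) for the 100 members (purple) and all entries with a mean of at least 20 (grey) in floret and rachis; right, member mean on the log2 scale (y axis) against head axis score (x axis) in every library, circles floret and triangles rachis, blue 22 °C and red 29 °C. The member correlations pile up below 0, with medians of -0.61 and -0.56, and the member mean is lower in libraries with higher scores.

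The members were not uniform in this respect. For the 50 members whose correlation with the axis was below -0.5 in both tissues, the median 8 h effects were -0.57 and -1.59 in the floret of DMSO and EBR seed and -0.59 and -1.72 in the rachis. For the 10 members with a correlation between -0.25 and 0.25 in both tissues, they were -0.61 and -0.69 for floret and -0.68 and -0.73 for rachis. The 50 members had a far larger median after EBR than after DMSO, and the medians of the 10 were close to each other. The head axis scores at 8 h differed more between the temperatures after EBR than after DMSO. A split by correlation with that axis therefore favours such a difference between the subsets. Both subsets were formed after the correlations were seen, and their difference was not tested.

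Comparisons that do not use the difference between temperatures do not enter the rule, and their differences are given on the log2(normalized count + 1) scale. At 0 h, 28 of the 100 members were higher in floret than in rachis (14.4% of 40613 entries tested) and 6 were lower (16.4%), by limma at an adjusted p under 0.05. The median floret minus rachis difference was 0.20 for the members. This fit held a mean for each group and did not pair the floret and rachis of a plant. The count with the plant as a block is given in the last paragraph. TraesCS2B03G0487000.1, on chromosome 2B, was higher in the floret by 1.82 (SE 0.35, adjusted p = 5.6e-05 by limma). Its counts at 0 h ranged over 10.4 to 268 in the floret and 2.17 to 162 in the rachis, so the tissues overlapped widely between heads. TraesCS4A03G0516700.1, on chromosome 4A, was lower in the floret, with a difference of -1.10 (limma, SE 0.20, adjusted p = 4e-05). Its counts at 0 h lay between 59.7 and 318 in the floret and between 110 and 436 in the rachis. Both calls were kept under all 12 alternatives. The number of members called was 4 without replicate 3 and 15 without replicate 2 or without replicate 4.

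By 16 h few members had changed from 0 h when both temperatures and seed treatments were averaged. In the floret 3 rose (2.41% of entries) and 5 fell (3.14%), and in the rachis 4 rose (3.8%) and 6 fell (3.67%), by limma at an adjusted p under 0.05. These shares are near the background. The floret count of 8 was 5 without replicate 1 and 3 without replicate 2, and the rachis count of 10 was 5, 4 and 16 without replicates 1, 2 and 4. TraesCS5B03G0804600.1 on chromosome 5B and TraesCS2D03G0211700.1 on chromosome 2D rose in both tissues. TraesCS5B03G0804600.1 rose by 0.91 in the floret (SE 0.09, limma adjusted p = 2.9e-10), and its rachis value rose by 1.23 (limma, SE 0.09, adjusted p = 3.4e-15). Its floret counts after DMSO at 22 °C were 137, 208, 197 and 161 at 0 h, 68.8, 65.7, 84.4 and 92.9 at 8 h, 266, 270, 238 and 249 at 16 h, and 78.4, 71.9, 54.2 and 64.1 at 24 h. At 29 °C and 8 h they were 25.7, 45.2, 31.5 and 47.4, below every 22 °C library of that hour. The swing from hour to hour was thus larger than the heat effect, and the hours did not overlap between 8 and 16 h. TraesCS2D03G0211700.1 rose by 0.92 in the floret (limma, SE 0.08, adjusted p = 2.8e-12), and its rachis value rose by 1.40 (limma, SE 0.10, adjusted p = 7.2e-16). It had the same order of hours, with 180, 142, 142 and 136 at 0 h, 66.6, 55.7, 80.3 and 68.3 at 8 h, and 270, 214, 236 and 208 at 16 h in that floret group. The 16 h calls of both entries were kept under all 13 alternatives.

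Most members had fallen a day after the start in the DMSO plants, and few had in the EBR plants. Over both seed treatments and temperatures, 24 h against 0 h, 46 members fell in the floret (17.4% of 38320 entries) and 6 rose (22.1%), and 47 fell in the rachis (22.4% of 38883) and 3 rose (26.5%), by limma. Of these, 32 fell in both tissues, which is 69.6% of the floret calls and 68.1% of the rachis calls. The matching overlap over all entries was not computed, and the tissues share heads, so this overlap is not read as a trait of the members. The floret count of 52 was 34 without replicate 1, and the rachis count of 50 was 33 without replicate 1 and 32 without replicate 3. The medians over members were -0.32 and -0.30, and those of all entries 0.01 and 0.04. With DMSO seed alone, 65 members fell (24.4%) and 9 rose (30.9%) in the floret, and 55 fell (28.0%) and 8 rose (34.4%) in the rachis, with medians of -0.68 and -0.58. With EBR seed alone, 3 fell (1.24%) and 0 rose (0.838%) in the floret, and 4 fell (0.309%) and 0 rose (0.28%) in the rachis, with medians of 0.04 and -0.11. At an unadjusted p under 0.05, 7 floret members (15.8% of entries) and 12 rachis members (9.12%) passed after EBR. The difference between the seed treatments was called in the direction of a higher EBR value for 51 members in the floret (20.0%) and 31 in the rachis (21.7%). It was called the other way for 3 (27.3%) and 6 (25.7%). The split by seed treatment was chosen after the data had been seen.

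TraesCS1A03G0429800.1, on chromosome 1A and ranked 99 among the members, fell by 1.30 in the floret from 0 to 24 h (SE 0.32, limma adjusted p = 0.0011). In the floret of DMSO seed at 22 °C its counts were 161, 58.5, 102 and 69.5 at 0 h and 10.7, 95.2, 14.3 and 15.8 at 24 h. In the pots named 29 °C they were 121, 77.8 and 22.9 at 0 h and 10.2, 8.39, 5.10 and 5.27 at 24 h. The 22 °C groups overlapped through 1 head, replicate 2 at 24 h, and the 29 °C groups did not overlap. After EBR its counts at 22 °C were 57.7, 33.9, 24.8 and 37.4 at 0 h and 74.5, 20.6, 30.3 and 24.99 at 24 h, which overlapped. TraesCS4B03G0039400.1, on chromosome 4B, fell by 1.83 in the rachis (SE 0.49, limma adjusted p = 0.0018). In the rachis of DMSO seed at 22 °C its counts lay between 69.3 and 266 at 0 h and were 3.00, 139, 1.36 and 0 at 24 h, where replicate 2 again stood apart. Neither call was kept with EBR seed alone, without the DMSO 29 °C groups, or with the head axis as covariate. With the covariate, 12 floret and 21 rachis members were called at 24 h against 0 h in place of 52 and 50, by limma. The share of all entries called in that fit is not given here, so the lower counts are not read as a result about the members. Without the DMSO 29 °C groups 7 floret members fell (2.69%) and 0 rose (2.63%), and 8 rachis members fell (4.46%) and 0 rose (3.73%), with 27 (22.0% of entries) and 37 (28.4%) at an unadjusted p under 0.05.

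**Figure D5:**
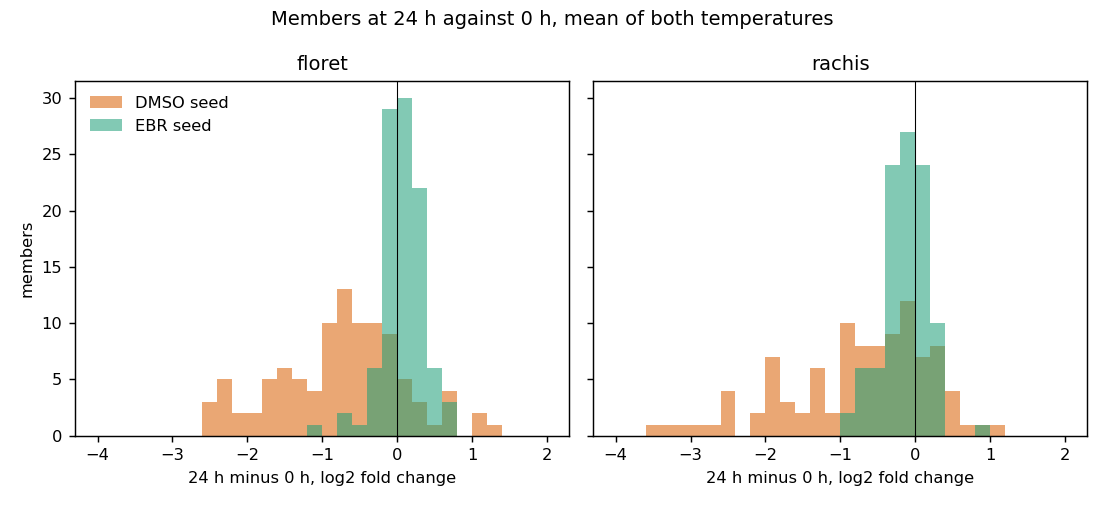
Number of members (y axis) by log2 fold change from 0 h to 24 h, mean of both temperatures (x axis), for DMSO seed (orange) and EBR seed (green) in floret and rachis. The DMSO values spread below 0 with medians of -0.68 and -0.58, and the EBR values lie around 0 with medians of 0.04 and -0.11.

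Seed treatment alone changed few members. At 0 h, EBR against DMSO, 1 member fell in the floret (0.0887% of entries) and 0 rose (0.394%), and 1 fell in the rachis (0.00514%) and 0 rose (0.0129%), by limma. At an unadjusted p under 0.05 there were 9 in the floret (11.5% of entries) and 15 in the rachis (6.6%), and edgeR called 3 floret members and 1 rachis member. The shares of all entries called by edgeR are not given here. The floret call was TraesCS2D03G0211700.1, which fell by 0.55 (SE 0.11, limma adjusted p = 0.0081). Its floret counts at 0 h in pots kept at 22 °C were 180, 142, 142 and 136 after DMSO and 126, 110, 107 and 100 after EBR, and did not overlap. The rachis call was TraesCS5B03G0804600.1, which fell by 0.63 (SE 0.12, limma adjusted p = 0.027). Its rachis counts at 0 h in pots kept at 22 °C were 182, 165, 160 and 135 after DMSO and 141, 117, 101.1 and 118 after EBR, where 1 EBR head overlapped the DMSO heads. Each call was lost without replicate 1, 2 or 3, and the limma or edgeR adjusted p over the alternatives spanned 0.0024 to 0.10 for the floret call and 0.0092 to 0.93 for the rachis call.

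Over 8, 16 and 24 h and both temperatures, 6 members were higher after EBR in the floret (5.44%) and 3 lower (9.54%), and in the rachis 1 was higher (8.1%) and 7 lower (8.42%), by limma. These shares are near or below the background. TraesCS5A03G0896800.1, on chromosome 5A, was lower after EBR in the rachis, with a log2 difference of -0.58 (SE 0.12, limma adjusted p = 0.0013), under all 13 alternatives. Its rachis counts at 24 h and 29 °C were 566, 970, 728 and 840 after DMSO and 322, 419, 368 and 365 after EBR, with no overlap. At 0 h the rachis means went the other way, with 443 after DMSO and 605 after EBR. The 0 h counts overlapped, from 228 to 807 after DMSO and from 339 to 790 after EBR. The floret count of 9 members was 0 without replicate 1, 1 without replicate 4, 3 without replicate 2 and 16 without replicate 3, and the rachis count of 8 was 3 to 5 without any 1 replicate.

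The members were spread over the subgenomes much as all entries were. They came from 100 genes, 96 by the first transcript listed. The A, B and D subgenomes held 32, 33 and 35 members, where 34.0%, 33.6% and 32.5% of the 30140 entries lie. Chromosome 2D held the most, 13, and chromosome 3D the fewest, 3, with 7.82% and 6.95% of the entries. A single pair of members lay within 10 genes of each other by gene order, 8 genes apart. Mean levels over all libraries ranged from 20.8 to 2072 normalized counts with a median of 107, against a median of 180 for the 30140 entries. A mean of at least 100 was reached by 51 members and of at least 500 by 18.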

How the data were processed

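The authors deposited a table of signal, named normalized counts, with a column for 121 of the 122 labelled samples (rachis, EBR seed, 22 °C, 8 h, replicate 1 was not analysed here). Per the submitters' processing notes, the tools included STAR, featureCounts, DESeq2 and Trimmomatic 0.36, with roles and genome build not given in the sources used here. Divided by 1 factor per library, 100% of the values were whole reads within 0.01. Of 55578 entries 1 was incomplete and left out. The 172 replicate pairs differed by at least 2.92 in chi-square per entry, beyond sampling noise.

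The tests used limma 3.58.1 (R 4.3.3) on log2 values with a pseudocount of 1, a mean for each group, an intensity trend, and 1 spread per tissue (1 joint fit for the tissue test). They were two-sided and Benjamini-Hochberg adjusted over all entries reaching 10 in 3 or more libraries. All 100 members entered each fit. edgeR 4.0.16 quasi-likelihood tests on the recovered reads were an alternative, with the pseudocount, the filter, the scaling, replicates and a block. A fold change on this scale understates that of low entries. Simulated data were first used for EBR against DMSO at 0 h (floret) and 24 h against 0 h (rachis) only. Those counts were drawn independently, without a head axis. Contrasts averaged over temperatures share libraries with the rule, whose contrast they do not use. Where groups differ in size, they are not strictly independent of it.

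Same-numbered libraries did not deviate together (mean correlation 0.00356 over 438 floret pairs and 0.0139 over 423 rachis pairs), so numbers were not used as pairs. Floret and rachis of a plant, tied by the labels, correlated at 0.307 over 59 plants.

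The members and the entries named were chosen with earlier results of these data known. Named by rule were the 2 lowest ranked and the 2 most abundant members, the entries at the limit of the set, and per test up to 2 called members in each direction with the largest change and a mean of at least 50; some are not printed, and members are otherwise given by counts.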

Additional observations from a re-analysis of the deposited data

Results flagged for a closer look

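In 26 groups of 4 libraries the library furthest from the others was compared with the range of its group, a check that chance passes in about 1 group in 20. The member mean of 1 head of DMSO seed at 22 °C and 24 h, replicate 2, stood apart in both tissues. In the floret its member mean was 7.18 and the nearest other library 6.22, and in the rachis 6.99 against 5.78. Its head axis scores were -0.97 (floret) and -1.25 (rachis), while the other 3 heads had scores from 2.08 to 3.20. Floret and rachis come from the same head, so these are not separate observations.

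The change from 0 to 24 h differed between EBR and DMSO seed for 54 floret and 37 rachis members, by the limma test of the difference itself. Over both directions 47.3% and 47.4% of all entries were called, so the floret total is near the background and the rachis total below it. By direction, 51 floret and 31 rachis members had the higher EBR value (20.0% and 21.7% of entries). The lower EBR value was called for 3 and 6 (27.3% and 25.7%). With the head axis score of the other tissue as covariate the counts over both directions were 7 and 16. The background of that fit is not given here, so the fall in the counts cannot be told from a fall over all entries.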

How the results depend on the processing

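The members depended on the choices of the rule: with no minimum mean 29 of the 100 were kept, with a mean of at least 50 66, with group medians 60, and without 1 replicate 37 (replicate 4) to 59. Leaving out 1 replicate moved the counts of members called as follows: floret against rachis 4 to 44, EBR against DMSO at 0 h 0 to 1 in each tissue, 16 h against 0 h 3 to 9 (floret, lowest without replicate 2) and 4 to 16 (rachis, lowest without replicate 2, highest without replicate 4), 24 h against 0 h 34 to 49 (floret, lowest without replicate 1) and 32 to 48 (rachis, lowest without replicate 3), and EBR against DMSO over the later hours 0 to 16 and 3 to 5.

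With the head axis covariate the counts were 2 (EBR at 0 h, floret), 5 (16 h, floret), 12 and 21 (24 h, floret and rachis), 1 (EBR over the later hours, floret), and 7 and 16 for the seed difference at 24 h. The medians that moved with it by more than the SD between replicates were -0.12 (floret, DMSO, 24 h), -0.53 and -0.11 (floret, EBR, 8 and 16 h), 0.29 (rachis, DMSO, 24 h) and -0.70 (rachis, EBR, 8 h). Within that SD, 3 others changed sign, to -0.15 (floret, DMSO, 16 h), -0.13 (floret, EBR, 24 h) and -0.17 (rachis, EBR, 24 h), and the rachis at 16 h gave -0.31 (DMSO) and -0.13 (EBR). With edgeR 3 members were called for EBR at 0 h and 5 over the later hours in the floret. With only the compared groups fitted, 0 were called for EBR at 0 h in the rachis. Added after seeing the data, EBR seed alone gave 3 and 4 calls at 24 h, and dropping the DMSO 29 °C groups 7 and 8. TraesCS3B03G0544400.1 changed sign in the rachis at 24 h with EBR seed alone, from 0.10 to -0.10. The shares of all entries called with the covariate and with edgeR are not given here, so these counts are not set against a background. The causes were not tested.

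With the replicate number as a block the 24 h counts were 54 and 49, the seed difference 54 and 36, the 16 h counts 8 and 10, and EBR over the later hours 10 and 8; the plant as a block gave 49 for floret against rachis. Of the other values, 225 summary results stayed close in size to the main value, for heat medians within the SD between replicates. Direction was not part of that check, and the medians given above that changed sign within the SD are among the 225. For single entries, 315 results kept their direction and side, and 81 calls were lost. Depth limits the 49 members with means under 100, where a fold change is least precise.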
